A study of Mus musculus with 82 samples.

Results

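The genes described here break down fatty acids and branched-chain amino acids. They are 34 genes out of the 55401 genes of the deposited count tables, each found by its gene symbol. They were chosen by name with earlier results of these data known, so shares of all genes beside their counts are descriptive. They comprise 14 genes of mitochondrial and peroxisomal beta-oxidation, 3 genes of fatty acid activation and the carnitine shuttle, 2 genes of electron transfer, 4 regulators, and 11 genes of the breakdown of leucine, isoleucine and valine. Klf15, a Krüppel-like transcription factor known as an activator of this catabolic program in muscle, liver and fat, was followed beside them.

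Fatty acids are activated to acyl-CoA, carried into the mitochondrion as carnitine esters and shortened there in repeated rounds of dehydrogenation, hydration, a further dehydrogenation and thiolysis. Electrons from the acyl-CoA dehydrogenases pass through the electron transfer flavoprotein to the respiratory chain. Branched-chain amino acids lose their amino group, are decarboxylated by the branched-chain keto acid dehydrogenase, and then follow steps that resemble beta-oxidation. PPAR factors and their coactivator PGC-1alpha (Ppargc1a) are known to raise the transcription of many of these enzymes.

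RNA came from primary smooth muscle cells of the aortas of C57BL/6 mice (aVSMC), grown with EGF, insulin, hydrocortisone and serum for up to 7 passages and then kept without supplements for 24 h before the stimuli. EGF (10 µg/L) activates the EGF receptor, AngII (10 nM) the angiotensin II receptor AT1R, and U46619 (1 µM), a stable thromboxane analog, the thromboxane receptor TP. The 24 h cultures formed 7 groups, an untreated control and the stimuli alone (EGF, AngII, U46619), in pairs (EGF with AngII, EGF with U46619) or all at once, each of 6 cultures with 1 culture from each of 6 mice. The 48 h cultures were made in a pair of batches with 4 groups of 5 cultures each. Both contained control and EGF cultures. The other cultures of the EGF/U46619 batch received U46619 with or without EGF, and those of the EGF/AngII batch AngII with or without EGF. A culture set means the 4 cultures of 1 batch under the same replicate number. The labels give 5 mouse numbers for the 10 culture sets, while the paper states that every replicate came from another mouse. Whether the 48 h replicates are all separate animals is therefore open.

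Libraries held 16483529 to 20818809 counts after 24 h and 19936925 to 33916114 after 48 h. Levels are given in FPM, counts divided by the library's total with TMM scaling factors within each time point. A gene is said to have fallen or risen only where it was called, which means an FDR below 0.05 by edgeR (quasi-likelihood) and also by DESeq2 (Wald), a mean of at least 5 FPM in a compared group, and enough counts at both time points. Standard errors (SE) and FDR printed here are edgeR's. All 34 genes were tested after 48 h and 33 after 24 h, since Ppargc1a had too few counts there. The smooth muscle markers Acta2 (1149 to 4949 FPM in control cultures after 24 h) and Cald1 (522 to 2066 FPM) were high in every control culture, while Tagln and Cnn1 lie on chromosome 9, whose genes are all listed at 0. None of the 34 genes lies on a chromosome listed at 0. After 24 h the library of EGF+AngII+U46619 from mouse 3 had the lowest mean correlation of deviations with its mouse (0.599, the next lowest 0.653). It is called the library that stands apart after 24 h. After 48 h, control replicate 4 of the EGF/AngII batch stood apart further (−0.28 with its culture set). The mean correlation of this control library with the 3 treated libraries of culture set 2 of that batch was 0.859, and its summed endothelial and fibroblast markers (2256 and 644 FPM) lay away from those of its own set (306 to 323 and 4626 to 5330 FPM), so it goes against its label, and it was kept under that label. Control replicate 2 of that batch also correlated less within its set (0.536) than the treated libraries there (0.772 to 0.79). Its macrophage marker sum was 242 FPM (43.4 to 44.1 in those libraries) and its endothelial sum 1437 FPM (2121 to 2394). No fit left it out alone. The libraries of set 3 of the EGF/U46619 batch had 0.447 to 0.571. Counts over all breakdown genes called with U46619, alone or combined, against control are given with and without the library named as standing apart at that time point. Counts by role include that library.

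Promoter windows show what DNA lies in front of the genes whose levels are given in full. The windows run from 250 bases before to 50 bases after the transcription start (RefSeq, GRCm38.p6), and 31 of the 34 genes had at least 1, some of them several. KLF15 is known to bind CACCC boxes and GC-rich boxes, so CACCC and GGGCGG were searched on both strands and stand in capitals. The genes shown are Ech1, Hadh and Bckdha, all lower with U46619 after 24 h, Pdk4, which was not called, and Klf15 itself. Their gene bodies, all protein coding, lie at chr7:28825217-28832247 (Ech1), chr3:131233419-131272101 (Hadh), chr7:25629946-25658981 (Bckdha), chr6:5483351-5496309 (Pdk4) and chr6:90462576-90475238 (Klf15) in GRCm38 (GENCODE M21).
Ech1 (chr7:28825088-28825387, plus strand): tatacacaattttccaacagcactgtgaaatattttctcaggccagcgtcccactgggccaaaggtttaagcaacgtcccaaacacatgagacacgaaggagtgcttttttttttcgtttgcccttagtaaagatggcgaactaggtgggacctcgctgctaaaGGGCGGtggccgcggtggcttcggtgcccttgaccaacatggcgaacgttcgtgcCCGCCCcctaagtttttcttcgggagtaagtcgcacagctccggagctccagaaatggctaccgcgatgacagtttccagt
Hadh (chr3:131272052-131272351, minus strand): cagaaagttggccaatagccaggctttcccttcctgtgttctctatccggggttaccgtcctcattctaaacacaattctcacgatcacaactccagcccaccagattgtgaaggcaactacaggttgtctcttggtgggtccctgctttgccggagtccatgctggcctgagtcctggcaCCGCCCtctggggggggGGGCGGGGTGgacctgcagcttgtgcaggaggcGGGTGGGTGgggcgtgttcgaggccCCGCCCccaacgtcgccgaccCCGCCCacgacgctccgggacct
Bckdha (chr7:25658712-25659011, minus strand): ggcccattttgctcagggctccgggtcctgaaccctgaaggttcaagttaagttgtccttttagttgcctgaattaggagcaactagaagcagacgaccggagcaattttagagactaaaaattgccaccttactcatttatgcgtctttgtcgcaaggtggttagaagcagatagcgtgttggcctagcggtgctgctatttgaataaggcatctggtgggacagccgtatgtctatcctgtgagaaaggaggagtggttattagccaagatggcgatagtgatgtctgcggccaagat
Pdk4 (chr6:5496229-5496528, minus strand): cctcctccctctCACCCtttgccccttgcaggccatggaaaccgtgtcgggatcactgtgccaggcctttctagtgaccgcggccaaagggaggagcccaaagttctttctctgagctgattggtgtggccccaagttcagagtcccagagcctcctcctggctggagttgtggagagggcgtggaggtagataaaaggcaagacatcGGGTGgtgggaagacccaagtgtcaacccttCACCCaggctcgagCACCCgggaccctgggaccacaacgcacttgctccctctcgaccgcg
Klf15 (chr6:90462326-90462625, plus strand): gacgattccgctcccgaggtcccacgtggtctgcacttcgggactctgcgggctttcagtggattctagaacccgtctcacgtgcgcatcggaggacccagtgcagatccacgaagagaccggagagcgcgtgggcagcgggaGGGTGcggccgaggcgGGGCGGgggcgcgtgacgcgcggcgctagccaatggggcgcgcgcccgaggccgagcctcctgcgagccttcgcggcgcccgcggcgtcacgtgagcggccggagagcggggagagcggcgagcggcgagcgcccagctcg

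Hadh held 3 CACCC and 4 GGGCGG matches, some of which share a base with their neighbour, Ech1 held 2 GGGCGG matches and no CACCC, Pdk4 held 4 CACCC matches and no GGGCGG, and Bckdha held neither. Counted by gene, with a match in any of its windows, CACCC was present for 24 of the 31 genes (77.4%) against 59.8% of all 27025 genes with a window, and GGGCGG for 22 (71%) against 38.2%. The strictest spelling of the PPAR element (a direct repeat of AGGTCA spaced by 1 base) was present for 0 of the 31 genes and for 0.0481% of all, and its core AGGTCA for 8 (25.8%) against 18.1%. TCAAGGTCA, the spelling bound by estrogen-related receptors, was present for 0 of the 31 genes and for 0.466% of all. These matches are letters in a window and carry no measurement of binding. The shares of all genes were neither limited to expressed genes nor matched for GC content. Hadha and Hadhb, which encode the alpha and beta subunits of the trifunctional protein, start back to back, so their windows overlap.

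Klf15 fell with U46619, with EGF+U46619 and with EGF+AngII+U46619 after 24 h. It ranged from 20.1 to 35.8 FPM in control cultures (median 30.5), from 24.2 to 40.8 with AngII (median 30.1), from 10.8 to 22.5 with EGF (median 17.0) and from 11.0 to 19.9 with EGF+AngII (median 15.2). With U46619 it ranged from 6.17 to 14.8 FPM (median 10.3), with EGF+U46619 from 4.12 to 8.10 (median 6.39) and with EGF+AngII+U46619 from 3.80 to 9.60 (median 5.01). No culture with U46619, alone or combined, reached the lowest control culture. The log2-fold change against control was −1.50 with U46619 (SE 0.22, FDR 1.66e-05, edgeR), −2.27 with EGF+U46619 (SE 0.23, edgeR FDR 6.31e-08) and −2.28 with EGF+AngII+U46619 (SE 0.23, edgeR FDR 4.12e-08), lower in 6 of 6 mice each. With EGF it was −0.79 (SE 0.22, edgeR FDR 0.088, DESeq2 FDR 0.0324), lower in 6 of 6 mice and not called, though called without mouse 6 (−0.86, edgeR FDR 0.0483), and with EGF+AngII it fell by 0.88 (SE 0.22, edgeR FDR 0.0401).

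After 24 h incubation with U46619, 15 of the 33 tested breakdown genes fell and 0 rose, where 13.8% of all 14653 genes tested fell and 12.8% rose. With EGF+U46619, 22 fell and 0 rose (15.7% of all genes fell and 16.2% rose), and with EGF+AngII+U46619, 19 fell and 0 rose (15.6% and 17.5%). The median log2-fold change over the 33 genes was −0.374 with U46619, −0.548 with EGF+U46619 and −0.439 with EGF+AngII+U46619, beside −0.063, −0.048 and −0.038 over all genes tested. Without the library that stands apart these medians were −0.369, −0.543 and −0.548, beside −0.062, −0.051 and −0.062. With EGF+U46619, 21 of the 33 were lower in every mouse, against 12.5% of all genes. These incubations share the same 6 control cultures, and the genes were chosen with earlier results of these data known. In a fit without the mouse as a term the counts were 2, 11 and 8 genes, where 2.73%, 5.06% and 5.53% of all genes fell.

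**Figure D1:**
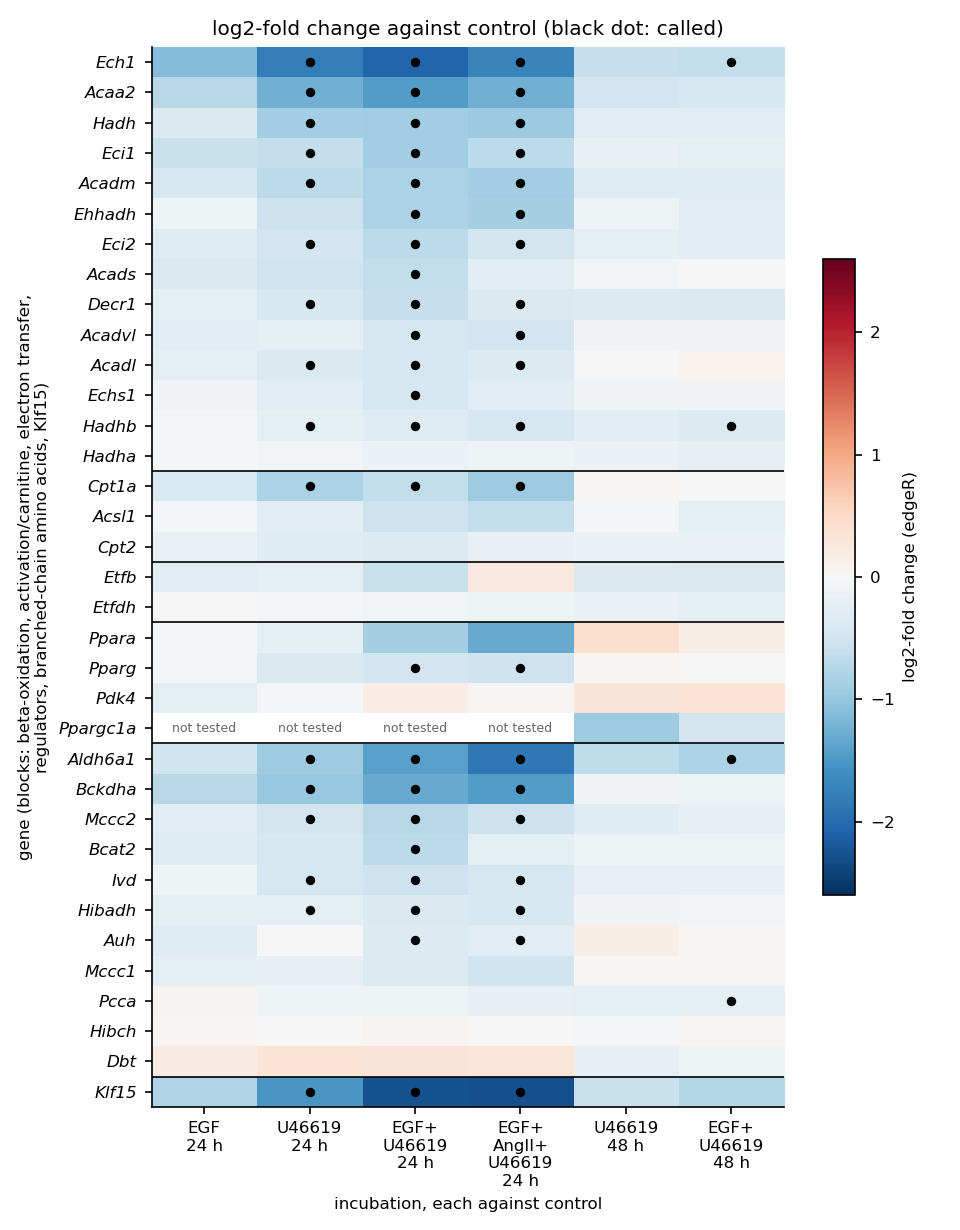
Heat map of the log2-fold change against control for the 34 genes and Klf15 (rows, grouped by role) in 6 comparisons (columns), with blue for lower and red for higher and a black dot for a called gene. The columns with U46619 after 24 h are mostly blue with 15, 22 and 19 called genes, Etfdh and Hibch stay between −0.14 and 0.07 there, and the 48 h columns are paler with 0 and 4 called genes.

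The beta-oxidation enzymes carried most of these calls. With U46619, 9 of the 14 fell, with EGF+U46619 13 of 14, and with EGF+AngII+U46619 11 of 14, where 13.8%, 15.7% and 15.6% of all genes fell. Acads and Echs1 were also called with EGF+AngII+U46619 when the library that stands apart was left out. The median over the 14 was −0.502, −0.669 and −0.482, and −0.497, −0.674 and −0.651 without the library that stands apart. Hadha was not called in any of these comparisons, with a log2-fold change of −0.16 with EGF+U46619 (SE 0.070, edgeR FDR 0.0627), and its levels of 147 to 197 FPM in control cultures overlapped those of 131 to 180.01 FPM with EGF+U46619.

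Ech1, which encodes a dienoyl-CoA isomerase needed for unsaturated fatty acids with double bonds at odd positions, had the largest change of the 33 genes in magnitude with EGF+U46619. Its levels were 552, 378, 244, 179.9, 171.9 and 123 FPM in the control cultures of mice 1 to 6 and 35.8, 70.5, 69.7, 59.3, 57.0 and 83.5 FPM with EGF+U46619. Over the other groups they ranged from 147 to 496 FPM with AngII (median 203), from 98.3 to 206 with EGF (median 109), from 71.5 to 174.3 with EGF+AngII (median 111), from 61.3 to 95.0 with U46619 (median 74.7) and from 31.4 to 198 with EGF+AngII+U46619 (median 68.7). Every culture with U46619 or EGF+U46619 was below every control culture, while the highest EGF+AngII+U46619 culture, the library from mouse 3 that stands apart, was not. The log2-fold change was −1.79 with U46619 (SE 0.32, edgeR FDR 0.000118) and −2.06 with EGF+U46619 (SE 0.33, edgeR FDR 1.54e-05), in 6 of 6 mice each. With EGF it was −1.12 (SE 0.32, edgeR FDR 0.0921, DESeq2 FDR 0.036), lower in 6 of 6 mice and not called.

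Acaa2, the mitochondrial thiolase of the last step of the cycle, ranged from 52.3 to 335 FPM in control cultures (median 186.3) and from 61.7 to 323 with AngII (median 154.3). It ranged from 48.8 to 204.5 FPM with EGF (median 93.1), from 51.4 to 219 with EGF+AngII (median 80.2) and from 43.0 to 165.8 with U46619 (median 54.3). With EGF+U46619 it ranged from 37.5 to 132 FPM (median 51.8) and with EGF+AngII+U46619 from 29.8 to 285.5 (median 56.6). The groups overlapped because mice differed several-fold, with mouse 3 highest in every group. Within mice Acaa2 was lower in 6 of 6 with each U46619 incubation, and it fell by 1.26 on the log2 scale with U46619 (SE 0.24, edgeR FDR 0.000165) and by 1.44 with EGF+U46619 (SE 0.24, edgeR FDR 2.12e-05).

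Hadh, the short-chain hydroxyacyl-CoA dehydrogenase, went from 49.8 to 127 FPM in control cultures (median 83.8) to 33.5 to 66.3 with U46619 (median 43.9), 35.3 to 57.0 with EGF+U46619 (median 44.1) and 33.5 to 55.3 with EGF+AngII+U46619 (median 42.3). With AngII (48.0 to 123 FPM, median 92.4), EGF (41.0 to 99.4, median 63.4) and EGF+AngII (41.0 to 102, median 65.8) it overlapped control over most of the range. It fell by 0.88 on the log2 scale with U46619 (SE 0.16, edgeR FDR 0.000116) and by 0.91 with EGF+U46619 (SE 0.16, edgeR FDR 4.32e-05), in 6 of 6 mice.

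Eci1, an enoyl-CoA isomerase for unsaturated fatty acids, ranged from 41.5 to 124 FPM in control cultures (median 83.6), from 39.2 to 117 with AngII (median 80.2), from 39.8 to 59.9 with EGF (median 52.8) and from 35.3 to 68.5 with EGF+AngII (median 46.1). With U46619 it ranged from 39.9 to 69.9 FPM (median 45.1), with EGF+U46619 from 34.3 to 50.6 (median 38.6) and with EGF+AngII+U46619 from 27.6 to 122 (median 40.4). The highest value of the last group was again the library from mouse 3 that stands apart. Eci1 fell by 0.62 with U46619 (SE 0.19, edgeR FDR 0.00947) and by 0.91 with EGF+U46619 (SE 0.19, edgeR FDR 0.000271), and with U46619 its call was lost when mouse 1 or mouse 2 was left out.

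**Figure D2:**
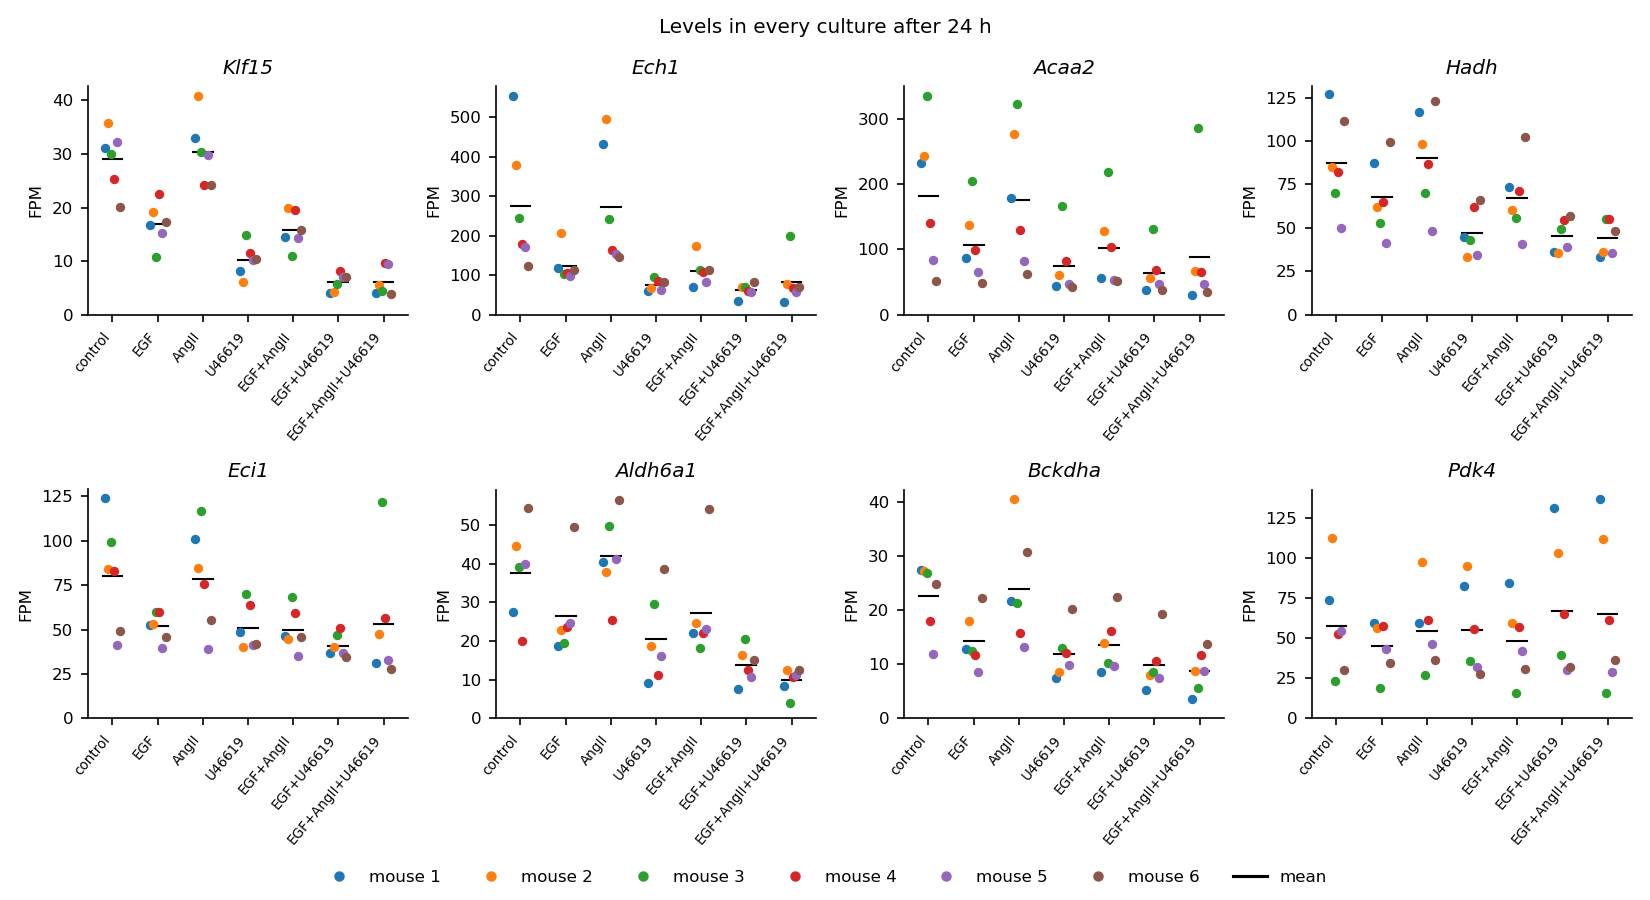
Level in FPM (y axis from 0) of Klf15, 6 breakdown genes and Pdk4 in all 42 cultures after 24 h by incubation (x axis), with 1 point per culture coloured by mouse and a black line for the group mean (n = 6). Klf15 and Ech1 sit lowest in the U46619 groups, Acaa2 is highest in mouse 3 in every group, and the ranges of Pdk4 overlap in all groups.

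Of the remaining beta-oxidation genes, the acyl-CoA dehydrogenases Acadm (medium chain), Acadl (long chain), Acads (short chain) and Acadvl (very long chain) had log2-fold changes of −0.83, −0.46, −0.65 and −0.46 with EGF+U46619, all called. The call of Acads was lost without mouse 1 or 2. Of the exon bases of Acadvl, 42.9% overlap Dvl2 on the opposite strand. Eci2 (−0.69) and Decr1 (−0.61), auxiliary enzymes for unsaturated fatty acids, and the enoyl-CoA hydratase Echs1 (−0.45) fell as well. Hadhb fell by only 0.34 with the small SE of 0.077 (edgeR FDR 0.000784). Ehhadh, the peroxisomal bifunctional enzyme, was the lowest of the 14 per exon length, with a median over the 6 control cultures of 1.48 FPM per kb of exon against 122.9 for Acaa2 and 92.8 for Ech1.

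In fatty acid uptake into the mitochondrion, only Cpt1a fell. Cpt1a, the carnitine palmitoyltransferase of the outer membrane and the regulated step of entry, ranged from 82.6 to 256 FPM in control cultures (median 168.3), from 61.8 to 151.2 with U46619 (median 80.5) and from 66.3 to 147 with EGF+U46619 (median 98.2). Its log2-fold change was −0.81 with U46619 (SE 0.21, edgeR FDR 0.0032), −0.65 with EGF+U46619 (SE 0.21, edgeR FDR 0.0131) and −0.92 with EGF+AngII+U46619 (SE 0.21, edgeR FDR 0.000718). The call of Cpt1a with EGF+U46619 was lost without mouse 1 or 2. In mouse 6 Cpt1a was at 82.6 FPM in control and 92.6 FPM with EGF+U46619. Cpt2, its partner in the inner membrane, had −0.35 with EGF+U46619 (edgeR FDR 0.0498, DESeq2 FDR 0.0661) and was not called. Etfb and Etfdh, which carry electrons from the acyl-CoA dehydrogenases to ubiquinone, were called in none of the comparisons with control after 24 h. Etfb was at 116 FPM in the library that stands apart and between 9.00 and 37.3 FPM in the other control and EGF+AngII+U46619 cultures. Of its exon bases, 58.2% overlap Gm45233 and Mir7051 on the same strand.

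The fatty acid activating enzyme Acsl1 was set by mouse 6. Its control levels were 11.2, 15.6, 13.4, 18.4, 31.0 and 573 FPM in mice 1 to 6, and its levels with EGF+U46619 were 19.5, 17.9, 14.5, 15.1, 14.5 and 26.1 FPM. The cultures of mouse 6 also carried adipocyte marker RNA. The sum of 10 adipocyte markers was 2356 FPM in control, 2112 with EGF, 1407 with U46619, 195 with EGF+U46619 and 346 with EGF+AngII+U46619 in mouse 6, while the control cultures of the other mice had 9.61 to 113 FPM. Of these markers, Adipoq was at 492 FPM, Plin1 at 357 and Fabp4 at 1292 in the control culture of mouse 6, and Ucp1 was listed at 0 in every control culture. Endothelial markers were high there too, with a sum of 2151 FPM in control and 2490 with EGF+U46619 (7 markers). The control cultures of the other mice had 4.85 to 679 FPM. In bulk RNA, fewer cells of a type and less RNA per cell cannot be told apart. Without mouse 6, the log2-fold change of Acsl1 with EGF+U46619 was −0.02 (−0.53 with it), and Ech1 (−2.32) and Klf15 (−2.40) were still called. Ehhadh (−0.59, edgeR FDR 0.119) and Pparg (−0.34, edgeR FDR 0.155) were not called without mouse 6, and likewise not without mouse 1, 2 or 5. The part of adipocyte and endothelial RNA in other genes' values within mouse 6 was not tested.

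**Figure D3:**
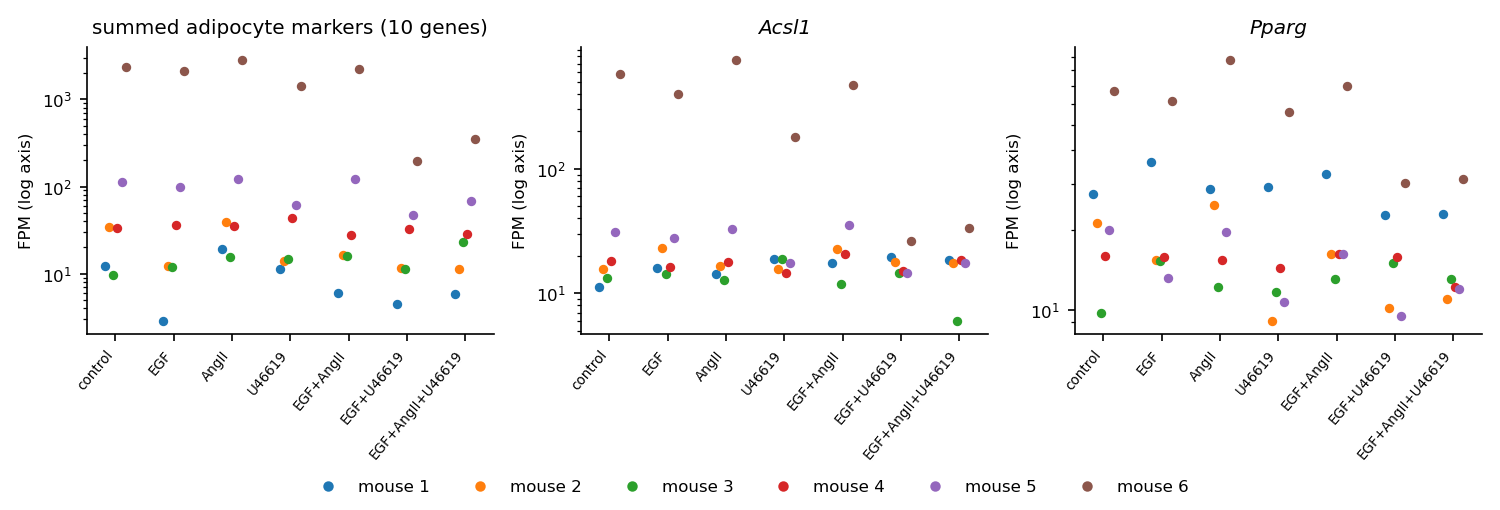
Summed level of 10 adipocyte markers, level of Acsl1 and level of Pparg (FPM, log axes) in the 42 cultures after 24 h by incubation, with 1 point per culture coloured by mouse. Mouse 6 lies far above the other mice for the marker sum and Acsl1 in control (2356 and 573 FPM) and near them for Acsl1 with EGF+U46619 (26.1 FPM).

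Genes of branched-chain amino acid breakdown fell in part. With U46619, 5 of the 11 fell, with EGF+U46619 7 and with EGF+AngII+U46619 6, where 13.8%, 15.7% and 15.6% of all genes fell. The medians were −0.257, −0.374 and −0.415 (−0.252, −0.372 and −0.358 without the library that stands apart). Without that library Bcat2 was also called with EGF+AngII+U46619. The called genes covered early and late steps, while Dbt, the E2 subunit of the keto acid dehydrogenase, was higher by 0.36 with U46619 (SE 0.17, edgeR FDR 0.097) and by 0.34 with EGF+U46619 (SE 0.17, edgeR FDR 0.112) and was not called. Without mouse 6 Dbt was called higher with U46619 (0.53, edgeR FDR 0.0143), with EGF+U46619 (0.58, edgeR FDR 0.00608) and with EGF+AngII+U46619 (0.51, edgeR FDR 0.0141).

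Aldh6a1, the methylmalonate semialdehyde dehydrogenase at the end of valine breakdown, ranged from 20.1 to 54.4 FPM in control cultures (median 39.5), from 25.3 to 56.6 with AngII (median 40.9), from 18.8 to 49.4 with EGF (median 23.2) and from 18.2 to 54.2 with EGF+AngII (median 22.5). It ranged from 9.05 to 38.7 FPM with U46619 (median 17.5), from 7.52 to 20.5 with EGF+U46619 (median 13.8) and from 4.00 to 12.6 with EGF+AngII+U46619 (median 10.9). The EGF+AngII+U46619 cultures all lay below the control cultures. The log2-fold change of Aldh6a1 was −0.93 with U46619 (SE 0.23, edgeR FDR 0.00271), −1.41 with EGF+U46619 (SE 0.24, edgeR FDR 3.05e-05) and −1.86 with EGF+AngII+U46619 (SE 0.24, edgeR FDR 8.76e-07), in 6 of 6 mice each. Of its exon bases, 18.6% overlap Bbof1 on the opposite strand, and whether the counting used strand is not given in the sources used here.

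Bckdha, the E1 alpha subunit of the branched-chain keto acid dehydrogenase, ranged from 11.8 to 27.3 FPM in control cultures (median 25.8), from 13.1 to 40.4 with AngII (median 21.4), from 8.61 to 22.1 with EGF (median 12.6) and from 8.51 to 22.4 with EGF+AngII (median 12.1). It ranged from 7.49 to 20.1 FPM with U46619 (median 10.9), from 5.21 to 19.2 with EGF+U46619 (median 8.29) and from 3.57 to 13.8 with EGF+AngII+U46619 (median 8.67). The groups overlapped, yet within mice Bckdha was lower in 6 of 6 for each. It fell by 0.99 with U46619 (SE 0.23, edgeR FDR 0.00151) and by 1.30 with EGF+U46619 (SE 0.23, edgeR FDR 6.4e-05). Of its exon bases, 61.7% overlap B3gnt8 on the opposite strand, so its reads may be shared with that gene.

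Of the other members, Mccc2, the beta subunit of methylcrotonyl-CoA carboxylase in leucine breakdown, fell by 0.72 with EGF+U46619 with a small SE of 0.11 (edgeR FDR 1.11e-05), whereas its alpha subunit Mccc1 had −0.36 (SE 0.21, edgeR FDR 0.168). Bcat2, the mitochondrial aminotransferase, Ivd, the isovaleryl-CoA dehydrogenase, Auh, a hydratase of leucine breakdown, and Hibadh, a dehydrogenase of valine breakdown, fell by 0.69, 0.55, 0.36 and 0.37 with EGF+U46619. The call of Bcat2 was lost without mouse 1 or 4, and 15.9% of its exon bases overlap 0610005C13Rik on the opposite strand. Pcca (propionyl-CoA carboxylase) and Hibch (a hydrolase of valine breakdown) were between −0.11 and 0.07 with U46619 and EGF+U46619 and were not called.

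Among the regulators, Pparg fell with EGF+U46619 and EGF+AngII+U46619, Pdk4 was not called, and Ppara and Ppargc1a were too low to judge. Pdk4, the pyruvate dehydrogenase kinase that spares glucose when fat is burned, ranged from 23.2 to 112.5 FPM in control cultures (median 53.6), from 26.9 to 97.1 with AngII (median 52.8), from 19.1 to 59.5 with EGF (median 49.7) and from 15.5 to 84.5 with EGF+AngII (median 49.4). It ranged from 27.8 to 95.0 FPM with U46619 (median 45.9), from 29.8 to 131 with EGF+U46619 (median 52.1) and from 15.8 to 136.5 with EGF+AngII+U46619 (median 48.9). All groups overlapped, and its log2-fold change was −0.04 with U46619 (SE 0.21, edgeR FDR 0.911) and 0.18 with EGF+U46619 (SE 0.21, edgeR FDR 0.507).

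Pparg, the PPAR of adipocytes, ranged from 9.77 to 67.1 FPM in control cultures (median 20.8), from 12.2 to 87.55 with AngII (median 22.3), from 13.2 to 61.4 with EGF (median 15.6), from 13.2 to 70.1 with EGF+AngII (median 16.3) and from 9.14 to 55.6 with U46619 (median 13.0). It ranged from 9.55 to 30.1 FPM with EGF+U46619 (median 15.5) and from 11.1 to 31.2 with EGF+AngII+U46619 (median 12.7), and mouse 6 was highest in every group. It fell by 0.49 with EGF+U46619 (SE 0.18, edgeR FDR 0.0322) and by 0.53 with EGF+AngII+U46619 (SE 0.18, edgeR FDR 0.0199), in 5 of 6 mice each. The first call was lost without mouse 1, 2, 5 or 6 and the second without mouse 2, 4, 5 or 6.

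Ppara, the PPAR of oxidative tissues, was between 0 and 1.09 FPM in every culture after 24 h, with a median of 0.307 in control, 0.293 with EGF, 0.742 with AngII, 0.193 with EGF+AngII, 0.254 with U46619, 0.185 with EGF+U46619 and 0.105 with EGF+AngII+U46619, and was not called. Ppargc1a was between 0 and 0.48 FPM in every culture, with a control median of 0.0713 FPM, and was not tested. At this depth a change in either gene was not detectable.

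AngII alone called 0 of the 33 genes after 24 h, beside 0 of all genes (0%) by edgeR with DESeq2, and 0 of the 33 had an unadjusted edgeR p under 0.05 in either direction, against 0.478% of all genes. EGF alone called 0 of the 33 (0.0136% of all genes fell), although 30 of the 33 had a negative log2-fold change and 13 an unadjusted edgeR p under 0.05 for a decrease, which 9.79% of all genes had. The median over the 33 genes was −0.257 with EGF, beside −0.032 over all genes. With EGF+AngII, Ech1 (−1.28, edgeR FDR 0.0408), Acaa2 (−0.84, edgeR FDR 0.045), Bckdha (−0.83, edgeR FDR 0.0471) and Eci1 (−0.65, edgeR FDR 0.048) fell, which is 4 of the 33 against 1.58% of all genes. The count was 0 without mouse 1, 2, 3 or 5, 2 without mouse 4 and 4 without mouse 6. EGF+AngII against EGF called 0 of the 33 genes by either tool, and 0 had an unadjusted edgeR p under 0.05 (0.471% of all genes). EGF+AngII+U46619 against EGF+U46619 called 0 as well, with 3 of the 33 higher at an unadjusted edgeR p under 0.05, Etfb, Bcat2 and Decr1 (4.05% of all genes). Without the library of mouse 3 that stands apart it was 0 of the 33 (0.263% of all genes), and the log2 difference was 0.07 for Etfb (0.85 with it), 0.04 for Bcat2 (0.46) and 0.06 for Decr1 (0.24).

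The difference between EGF+U46619 and U46619 called 0 of the 33 genes and 0 of all genes after 24 h, with 2 of the 33, Auh and Mccc2, at an unadjusted edgeR p under 0.05 for a decrease (1.54% of all genes). The log2 difference was −0.27 for Ech1 (SE 0.31), −0.18 for Acaa2 (SE 0.23), −0.48 for Aldh6a1 (SE 0.24) and −0.77 for Klf15 (SE 0.22, edgeR FDR 1, DESeq2 FDR 0.155). Against EGF, EGF+U46619 lowered 8 of the 33 (6.09% of all genes), namely Hadh, Hadhb, Ech1, Acaa2, Decr1, Ivd, Mccc2 and Aldh6a1, and the count was 3, 3, 13, 5 and 2 without mouse 1, 2, 3, 4 and 5. U46619 against EGF lowered Hadh by 0.51 (SE 0.16, edgeR FDR 0.0286; 5.08% of all genes were lower) and raised Auh by 0.32 (SE 0.11, edgeR FDR 0.0423; 5.89% were higher). The count of lower genes was 0 without mouse 1, 2 or 6 and 3 without mouse 3, and Auh was called only without mouse 6 among the fits that left out a mouse. The departure from additivity of EGF and U46619 on the log2 scale was called for 0 of the 33 genes by either tool, and 0 had an unadjusted edgeR p under 0.05 (3.14% of all genes). It was 0.85 for Ech1 (SE 0.44, edgeR FDR 1) and 0.02 for Klf15 (SE 0.31).

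The library of EGF+AngII+U46619 from mouse 3 affected the counts. Without it, 19 of the 33 genes fell with U46619, 25 with EGF+U46619 and 24 with EGF+AngII+U46619, where 16.4%, 18.4% and 18.2% of all genes fell, and Acads, Echs1, Cpt2, Etfb and Bcat2 joined the last list. In the same fit 9 genes fell with EGF+AngII in place of 4 (5.54% of all genes).

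After 48 h fewer genes were called. Libraries paired by culture set (median correlation of deviations 0.809) more than by mouse number alone (0.0749). More genes were called with the culture set as block, as given further below. The main fit held the cultures of both batches, with the mouse number as block and no term for the batch. Its controls are therefore those of both batches, including the control library that stands apart. With U46619, 0 of the 34 genes were called (1.42% of all 15796 genes fell), with 9 at an unadjusted edgeR p under 0.05 (11.9% of all genes for a decrease) and 4 called by DESeq2 alone, all lower (2.8% of all genes). With EGF+U46619, Aldh6a1, Ech1, Hadhb and Pcca fell, which is 4 of 34 against 2.77% of all genes. The median over the 34 genes was −0.152 with U46619 and −0.198 with EGF+U46619, beside −0.028 over all genes in each. EGF, AngII and EGF+AngII called 0 of the 34 genes and 0 of all genes by edgeR with DESeq2 and by DESeq2 alone, with 1, 0 and 1 of the 34 at an unadjusted edgeR p under 0.05 for a decrease (0.589%, 0.899% and 1.25% of all genes). Against EGF, EGF+U46619 lowered Hadhb (−0.35, SE 0.10, edgeR FDR 0.045), which is 1 of 34 against 2.02% of all genes, with 8 at an unadjusted edgeR p under 0.05 (11.1%) and 4 by DESeq2 alone (3.36%). U46619 against EGF called 0 (1.2% of all genes), with 9 at an unadjusted edgeR p under 0.05 (10.2%) and 1 by DESeq2 alone (2.25%). EGF+U46619 against U46619 and the departure from additivity each called 0 by either tool, with 0 of the 34 at an unadjusted edgeR p under 0.05 (0.443% and 0.323% of all genes).

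Klf15 was at 25.5, 26.4, 38.4, 13.5 and 25.8 FPM in the control cultures of sets 1 to 5 of the EGF/U46619 batch, at 15.5, 19.0, 16.4, 7.37 and 18.8 FPM with U46619 and at 12.7, 19.6, 14.6, 7.34 and 14.9 FPM with EGF+U46619. It was lower in 5 of 5 sets with each. Against the controls of both batches, the log2-fold change was −0.58 with U46619 (SE 0.26, edgeR FDR 0.19) and −0.74 with EGF+U46619 (SE 0.27, edgeR FDR 0.0782, DESeq2 FDR 0.0392), not called. Ech1 was at 117, 107, 229.5, 107 and 135 FPM in the same control cultures, at 67.8, 88.3, 88.4, 82.3 and 80.3 with U46619 and at 64.0, 84.8, 77.3, 80.3 and 88.0 with EGF+U46619. All 5 cultures of each U46619 group lay below all 5 control cultures of the batch, and Ech1 fell by 0.64 with EGF+U46619 (SE 0.19, edgeR FDR 0.0357), in 5 of 5 sets.

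Aldh6a1 was at 54.1, 35.2, 32.2, 19.9 and 33.3 FPM in the control cultures, at 29.4, 26.2, 17.0, 18.3 and 27.9 with U46619 and at 26.6, 22.8, 18.5, 18.0 and 21.1 with EGF+U46619, lower in 5 of 5 sets. It fell by 0.80 with EGF+U46619 (SE 0.22, edgeR FDR 0.0203). Hadhb fell by 0.36 (SE 0.10, edgeR FDR 0.0254) in 5 of 5 sets and Pcca by 0.25 (SE 0.071, edgeR FDR 0.0281) in 4 of 5. Of 10 fits that each left out 1 culture set, Aldh6a1 was called in 9, Hadhb and Pcca in 5 and Ech1 in 3. The count of called genes was 2, 1, 0, 1 and 2 without set 1, 2, 3, 4 and 5 of the EGF/U46619 batch and 1 without set 2 of the EGF/AngII batch. With U46619 alone it was 1 without set 2 of the EGF/U46619 batch, and 2 and 3 without set 1 and 4 of the EGF/AngII batch. Of the genes most changed after 24 h, Bckdha had −0.13 with EGF+U46619 after 48 h (SE 0.16, edgeR FDR 0.633), and Acaa2 had −0.45 (SE 0.21, edgeR FDR 0.187). Pdk4 was higher by 0.35 (SE 0.30, edgeR FDR 0.482) and Ppargc1a stayed at or below 0.734 FPM in this batch.

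The calls after 48 h depended on how the replicates were paired. With the culture set as the block, 6 genes fell with U46619 (Hadh, Ech1, Acaa2, Mccc2, Pcca and Aldh6a1) and 7 with EGF+U46619 (the 4 above with Eci1, Eci2 and Acaa2), where 4.48% and 6.73% of all genes fell. Klf15 then fell by 0.63 and 0.78 (edgeR FDR 0.047 and 0.0107). Within the EGF/U46619 batch alone, 7 genes fell with each (4.9% and 7.37% of all genes). With the batch as a further term beside the mouse number, 0 and 1 did (0.487% and 1.37%). Without the control library that stands apart, 2 and 4 did (1.55% and 2.75%).

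**Figure D4:**
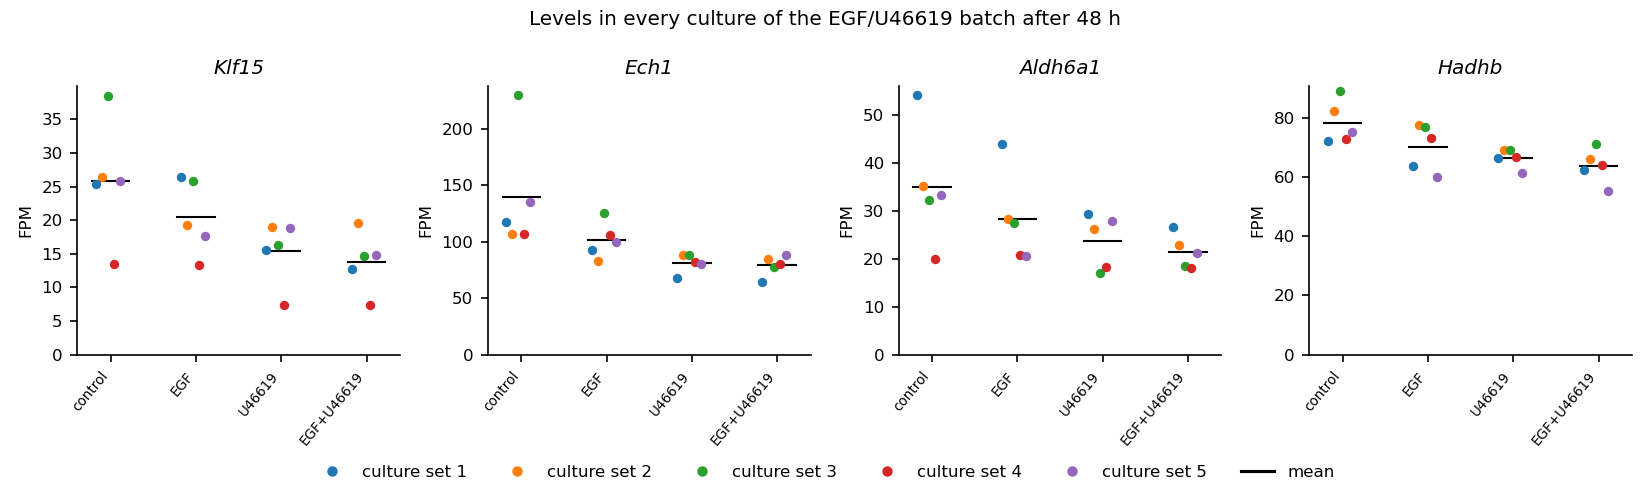
Level in FPM (y axis from 0) of Klf15, Ech1, Aldh6a1 and Hadhb in the 20 cultures of the EGF/U46619 batch after 48 h by incubation, with 1 point per culture coloured by culture set and a black line for the mean (n = 5). Ech1 with U46619 or EGF+U46619 lies between 64.0 and 88.4 FPM, below the lowest control culture.

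Over the 6 control cultures of 24 h, which come from 6 mice, 0 of the 33 genes had a relation to Klf15 that passed an exact two-sided permutation test after adjustment (lowest adjusted p = 0.543). Pearson's r ran from −0.873 (Hadhb, exact permutation p = 0.0208, 0.543 after Benjamini-Hochberg adjustment over the 33 genes; Spearman's rho −0.771, p = 0.103) to 0.81 (Cpt1a, p = 0.0514, adjusted 0.543; rho 0.6, p = 0.242). Ech1 had r = 0.702 (exact p = 0.115, adjusted 0.543; rho 0.543, p = 0.297) and Acaa2 r = 0.668 (exact p = 0.143, adjusted 0.59; rho 0.429, p = 0.419). Without the 2 cultures farthest from the median of Klf15, r was −0.263 for Hadhb, −0.544 for Cpt1a, 0.149 for Ech1 and −0.168 for Acaa2, so these relations rest on those cultures.

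Over all 42 cultures of 24 h, which share mice and incubations, the correlation of log2(FPM + 0.5) with Klf15 was positive for 31 of the 33 genes, with a median r of 0.403, beside a median of 0.041 and 53.9% positive over all other genes tested. It was highest for Ech1 (0.799), Aldh6a1 (0.781) and Bckdha (0.754), and −0.044 for Pdk4 and −0.267 for Dbt. After the means of mouse and incubation were taken out, 24 of the 33 were positive with a median r of 0.275 (0.034 and 53.7% over all genes). The values were then 0.760 for Bckdha, 0.623 for Cpt1a, 0.566 for Hadh, 0.534 for Acaa2 and 0.522 for Ech1. These were the 5 genes with r over 0.5 (15.2%, beside 8.09% of all genes), without Aldh6a1, and the lowest of the 33 was −0.421. Without the library that stands apart, the median was 0.333 and the same 5 genes had 0.757, 0.652, 0.655, 0.658 and 0.656. In that case 10 genes were over 0.5 (30.3%, beside 11.2% of all genes). After 48 h, over 40 cultures and with the means of culture set and group taken out, the median over the 34 genes was 0.285 (0.019 over all genes), with 0.786 for Ech1 and 0.643 for Pdk4. Without the 1 control library that stands apart they were 0.341, 0.654 and −0.097, so the value of Pdk4 rested on that library. These correlations are descriptions with no test, since cultures of a mouse and genes of a library are not independent.

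**Figure D5:**
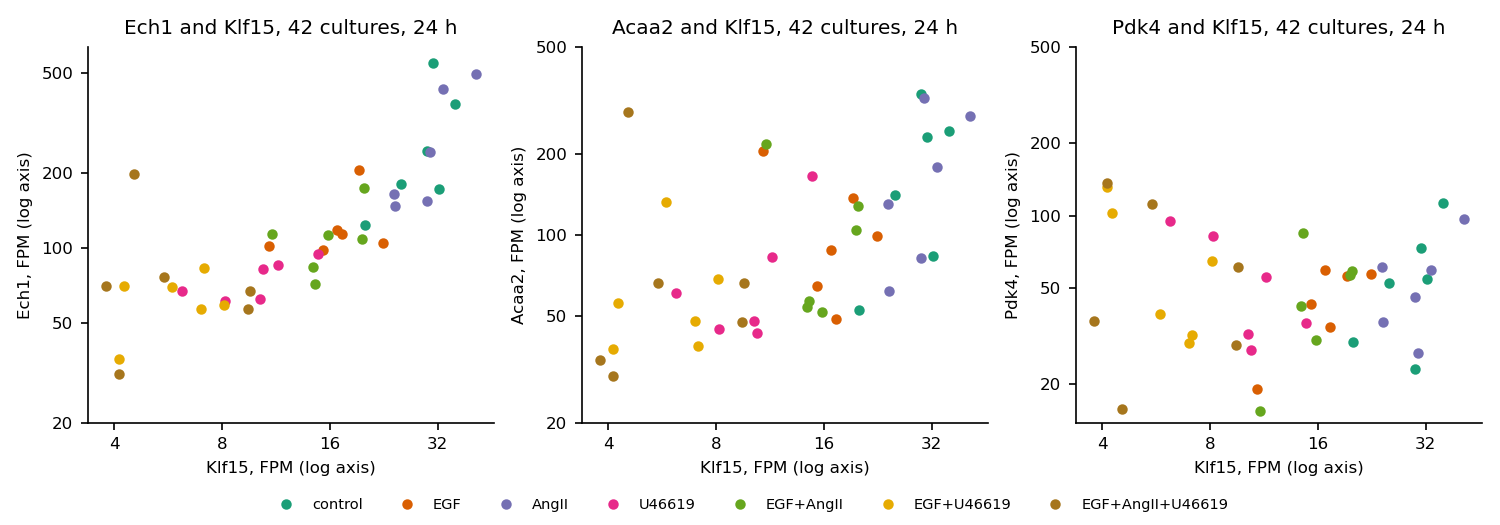
Level of Ech1, Acaa2 and Pdk4 (y axes, FPM, log scale) against that of Klf15 (x axes, FPM, log scale) in the 42 cultures of 24 h, with 1 point per culture coloured by incubation. Ech1 lies along a rising band from the U46619 groups to control and AngII (r = 0.799), Acaa2 scatters more (0.553), and Pdk4 shows no slope (−0.044).

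Further genes of the same pathways were read against the shares of all genes, of which 13.8% fell and 12.8% rose with U46619 and 15.7% and 16.2% with EGF+U46619. Of 35 other genes of fatty acid breakdown, 24 were tested after 24 h, and 11 fell and 0 rose with U46619, 12 fell and 2 rose with EGF+U46619. The largest changes with U46619 were in Acacb, an acetyl-CoA carboxylase whose product inhibits the carnitine shuttle (−1.42, SE 0.29, edgeR FDR 0.000442), Acad12 (−1.29, SE 0.22, edgeR FDR 6.5e-05) and the acyl-CoA thioesterase Acot1 (−1.07, SE 0.34, edgeR FDR 0.0146). Of 18 other genes of branched-chain amino acid breakdown, 13 were tested, and 2 fell and 2 rose with U46619, near the shares of all genes. Bcat1, the cytosolic aminotransferase, rose by 1.76 (SE 0.24), Abat fell by 0.81 (SE 0.27) and Mcee by 0.73 (SE 0.17). Of 20 targets and partners of PPAR and KLF15, 16 were tested, and 3 fell and 1 rose with U46619, also near those shares for a decrease. Pdk2, another pyruvate dehydrogenase kinase, fell by 1.22 (SE 0.26), the alanine aminotransferase Gpt by 0.77 (SE 0.24) and Rxra, the partner of the PPAR factors, by 0.62 (SE 0.12).

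Markers of cell types moved with U46619 too. The sum of 10 smooth muscle markers had a median of 4024 FPM in control (1907 to 8002) and 14230 with U46619 (5496 to 19180), and that of 8 fibroblast markers 977 (624 to 3602) and 460 (239 to 2262). Of the 8 smooth muscle markers tested, Acta2, Cald1 and Lmod1 rose (2.05, 0.94 and 0.84 on the log2 scale) and 0 fell, and 7 of the 8 fibroblast markers fell and 0 rose. The sum of 7 macrophage markers had a median of 92.9 and 42.5 FPM, and that of 7 endothelial markers 238.6 (4.85 to 2151) and 191 (3.03 to 1922). After 48 h, in the EGF/U46619 batch, the fibroblast sum had a median of 1720 FPM in control, 1153 with U46619 and 1067 with EGF+U46619, lower than control in 5 of 5 sets with each. The macrophage sum (medians of 88.6, 64.6 and 61.9 FPM) was lower in 4 of 5 and 5 of 5 sets, and the smooth muscle sum in 2 of 5 sets with each. The endothelial sum (medians of 150.4, 121.7 and 122 FPM) was lower in 5 of 5 and 3 of 5 sets. Their part in the lower levels of the breakdown genes was not tested.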

How the data were processed

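RNA-seq counts per gene were used for 82 cultures of aVSMC. The authors made the deposited counts by poly(A) selection, alignment with HISAT2 2.1.0 to mm10 and counting with featureCounts over exons with multimapping reads kept. The strand setting is not given in the sources used here. Genes of chromosomes 9, X, Y and MT are listed at 0 in all libraries. Within each time point, counts were filtered with filterByExpr, scaled by TMM and tested with edgeR 4.0.16 (quasi-likelihood) and DESeq2 1.42.0 (Wald). The terms were mouse number and incubation. The study's design had animal and treatment as terms, and after 48 h its animal may be the culture set rather than the mouse number. A gene was called at FDR below 0.05 in both, with a mean of at least 5 FPM in a compared group and enough counts at both time points (14528 genes). Standard errors are those implied by edgeR's statistic. Correlations used log2(FPM + 0.5) and exact permutation tests (SciPy 1.17.1). R 4.3.3 and Python 3.11.15 were used, and the gene-wise tests were tested on simulated data.

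Pairing was checked by the correlation of same-numbered libraries' deviations from group means. After 24 h, where the number names the mouse, 126 of 126 pairs were over 0.1 (median 0.776). At 48 h the same held for 57 of 60 pairs from 1 culture set and for 78 of 176 pairs that share only a mouse number. The medians were 0.809 and 0.0749. Libraries thus paired by culture set more than by mouse number, which was kept as the main block. The gene members and lists were chosen with earlier results of these data known. Values per group are given in full for Klf15, the regulators and the 6 called genes with the largest absolute log2-fold change with EGF+U46619 after 24 h, since no gene was called with U46619 at both time points. Of each further pathway list the 3 called genes with the largest change with U46619 after 24 h are named. Alternatives changed the normalization, filter, test, block and libraries. Leaving out a library that stands apart was chosen after seeing the data. The edgeR and DESeq2 p-values set a difference against the spread between cultures left after the terms for mouse number and incubation. After 48 h that spread includes differences between culture sets with the same mouse number. The permutation p-values rest on the 6 control cultures of 24 h.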

Additional observations from a re-analysis of the deposited data

Results flagged for a closer look

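Levels of 10 genes were searched for cultures far from the others of their group, by the gap to the nearest culture relative to the group's range (Dixon's 95% limit). Of 150 groups, 27 held such a culture, where chance gives about 1 in 20. The cultures of mouse 6 after 24 h were high in Acsl1, with 573 FPM in control, 397 with EGF, 747 with AngII, 179.9 with U46619 and 468 with EGF+AngII. The same mouse was high in Pparg, with 67.1 FPM in control, 87.55 with AngII and 70.1 with EGF+AngII, and in Aldh6a1, with 49.4 FPM with EGF and 54.2 with EGF+AngII. Mouse 3 was high in Acaa2, with 165.8 FPM with U46619, 132 with EGF+U46619 and 285.5 with EGF+AngII+U46619. In the last of these libraries Ech1 (198 FPM) and Eci1 (122 FPM) were high as well. Ech1 was at 206 FPM in the EGF culture of mouse 2.

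After 48 h, set 4 of the EGF/AngII batch was high in Klf15, with 44.6 FPM with EGF and 43.8 with EGF+AngII, and in Ech1, with 186.4 FPM with AngII and 217 with EGF+AngII. Set 1 of the EGF/U46619 batch was high in Pparg, with 72.2 FPM in control, 80.0 with U46619 and 70.0 with EGF+U46619. Single cultures far from their group were set 3 of the EGF/U46619 batch for Ech1 in control (229.5 FPM), set 1 of that batch for Hadh with EGF (71.1 FPM), and replicate 5 of the EGF/AngII batch for Pparg in control (43.8 FPM) and for Bckdha with EGF+AngII (11.6 FPM, the lowest).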

How the results depend on the processing

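Of the alternatives to the counts of called genes and to the relation with Klf15, 349 were rated unchanged, 74 moved and 2 reversed. A count was rated unchanged when it was equal, also where no gene was called in either fit, or within 1.5 times the value reported. The median r with Klf15 was rated unchanged when it kept its sign and shifted by less than the standard deviation over genes. For single genes, 419 stayed on their side of the threshold, 20 lost the call and 23 gained one. The cause of a move was not tested beyond what the setting itself changes. Depth limits what can be said of Ppara and Ppargc1a, which were at or below 1.09 FPM in every culture.

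After 24 h, without the replicate block (the mouse), the count of lower genes was 2 with U46619, 11 with EGF+U46619, 8 with EGF+AngII+U46619, 0 with EGF+AngII, 0 for EGF+U46619 against EGF and 0 for U46619 against EGF, where the count of higher genes was also 0. Leaving out each mouse gave 10 to 19, 17 to 25, 13 to 22 and 0 to 4 lower genes for the first 4, 0 to 1 with EGF, 2 to 13 for EGF+U46619 against EGF and 0 to 3 for U46619 against EGF. Higher genes then ranged from 0 to 1 with U46619, EGF+U46619 and EGF+AngII+U46619 (1 without mouse 6) and from 0 to 1 for U46619 against EGF. With EGF, DESeq2 alone and no filter on low counts gave 1 lower gene each. For EGF+U46619 against EGF no filter gave 4. For U46619 against EGF, DESeq2 alone gave 2 lower genes, and DESeq2's size factors and no filter each gave 0 higher ones. Without the library that stands apart, 9 genes were lower with EGF+AngII.

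After 48 h the count of lower genes with U46619 was 4 by DESeq2 alone, 6 with the culture set as replicate block, 7 in the EGF/U46619 batch only, 2 without the control library that stands apart and 0 to 3 when 1 culture set was left out. With EGF+U46619 it was 1 with no filter, 0 with no replicate block, 7 with the culture set as replicate block, 7 in the batch only, 1 with batch as a further term and 0 to 4 when 1 culture set was left out. For EGF+U46619 against EGF (Hadhb) it was 4 by DESeq2 alone, 0 with no filter, 0 with no replicate block, 4 with the culture set as replicate block, 0 in the batch only, 0 with batch as a further term, 2 without the control library and 0 to 1 when 1 culture set was left out. For U46619 against EGF it was 1 by DESeq2 alone, 3 with the culture set as replicate block and 0 to 1 when 1 set was left out.

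The median r with Klf15 over the control cultures (−0.131) ranged from −0.347 to 0.161 when 1 mouse was left out and changed sign without mouse 6, and it was 0.336 over the U46619 cultures.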
